A study of Homo sapiens with 45 samples.

Results

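Expression of 9 imprinted genes was followed in HEK293F cells before transfection and while they made recombinant adeno-associated virus (rAAV). The genes were PEG10, SGCE, PEG3, MEST, IGF2, DLK1, MEG3, H19 and CDKN1C, taken by name from the 60675 gene identifiers in the count files, and all 9 were matched. HEK293F cells descend from HEK293, an established line of human embryonic kidney origin, and grow in suspension. Poly(A) RNA was sequenced from 5 lines at 0, 24 and 72 h, with 3 libraries for each of the 15 groups of line and time (45 libraries).

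The lines AC1.112, AC1.203 and AC1.230 are labelled wild type and clonal, so each stands for 1 clone, AC1P is labelled wild type and polyclonal, and 293F is labelled wild type. All 5 lines received the same triple transfection with TransIT-VirusGEN in Expi293 medium, with a pHelper plasmid, a RepCap9 plasmid and a reporter plasmid that carries the viral terminal repeats. The 0 h libraries were taken before transfection. No group was given a mock transfection, so time in culture and transfection cannot be told apart in the time comparisons. The study compared time points, and also lines with high and with baseline rAAV yield, but the labels do not say which line is which, so the lines are compared here by name. Nothing in the labels says that the 3 libraries of a group came from separate cultures, so the p-values then measure only the spread between these libraries, which may be technical.

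Imprinted genes are expressed mainly or wholly from the copy inherited from the mother or from that inherited from the father. The choice is set by DNA methylation marks laid down in egg and sperm at imprinting control regions, and proteins such as the zinc finger protein ZFP57 and the maintenance methyltransferase DNMT1 keep these marks through cell division. Many imprinted genes act on fetal and placental growth, and their silencing or release is a known feature of long-cultured cells. In these libraries the parental copies were not distinguished, so each value is the sum over all copies of a gene, and fewer copies and less RNA per copy cannot be told apart.

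PEG10 (paternally expressed gene 10, ENSG00000242265, chr7:94656325-94669695 on the plus strand of GRCh38) is derived from a retrotransposon. It encodes capsid-like and protease-containing proteins and, as in a retrovirus, the longer protein is made by a -1 ribosomal frameshift. The stretch that carries this frameshift is shown because it is the retroviral feature that sets PEG10 apart from the other 8 genes. It lies in coding sequence at chr7:94664460-94664534 (plus strand, GRCh38). Capitals mark the 7-base slippery heptamer (94664510 to 94664516) and the stop codon TAG of the upstream reading frame, 15 bases after it.
PEG10 frameshift window: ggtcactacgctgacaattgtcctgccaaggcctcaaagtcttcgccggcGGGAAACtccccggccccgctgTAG
The upstream reading frame holds 325 codons before that stop, and the -1 frame runs for 388 codons without a stop after the heptamer. The counts here cover the whole gene and do not separate the products of the reading frames.

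H19 and MEST also host microRNAs, shown because they are what these loci add beside their long transcripts. The mature sequences are from RefSeq (GRCh38.p14), with the seed (bases 2 to 8) in capitals, and no seed is shared between the 4. These poly(A) libraries do not measure mature microRNAs.
hsa-miR-675-5p (in H19, chr11:1996800-1996822, minus strand): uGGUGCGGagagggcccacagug
hsa-miR-675-3p (in H19, chr11:1996768-1996787, minus strand): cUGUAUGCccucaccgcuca
hsa-miR-335-5p (in MEST, chr7:130496126-130496148, plus strand): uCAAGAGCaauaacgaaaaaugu
hsa-miR-335-3p (in MEST, chr7:130496162-130496183, plus strand): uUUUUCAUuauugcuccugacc

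Levels are given as CPM, the count of a gene divided by the library total and expressed per 1e6 counts, after scaling of the totals by trimmed means of M values (TMM). Library totals ran from 24727028 to 59837051 gene-assigned counts, with a median of 39247411. No pair of replicate libraries agreed within sampling noise (chi-square per degree of freedom 4.08 to 23.7), so none was taken for a copy of another. Of 9 genes known from HEK293 cells, 6 reached a mean of 1 CPM in every line. The summed levels of marker genes of other cell types were 0.886 to 5.04 CPM for 4 haematopoietic genes, 0.292 to 1.66 CPM for 3 endothelial genes, 0 to 0.733 CPM for 2 hepatocyte genes and 6.11 to 40.8 CPM for 4 fibroblast genes. The fibroblast sum came mostly from COL1A1 and LUM, while COL1A2 did not exceed 0.0804 CPM in any library.

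The 9 genes fell into 3 classes by level. PEG10 was among the most abundant transcripts of the 4 AC1 lines. SGCE, IGF2, CDKN1C and H19 were present at low to moderate levels in all 45 libraries. MEST, PEG3, DLK1 and MEG3 were at or near 0. Per kilobase of exon, the mean level over all libraries was 78.4 CPM per kb for PEG10, 2.29 for SGCE, 2.21 for CDKN1C, 0.796 for IGF2, 0.783 for H19 and 0.0190 for MEST. On that scale PEG10 ranked 538 of 20996 genes and SGCE ranked 10442. The filter on low counts kept 6 of the 9 genes (21242 genes in all), and PEG3, DLK1 and MEG3 were not tested.

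PEG10 separated 293F from the other lines by a wide margin. Before transfection AC1.112 had 540, 589 and 581 CPM in its 3 libraries, AC1.203 had 605, 643 and 654, AC1.230 had 745, 786 and 758, and AC1P had 698, 683 and 682. The 3 libraries of 293F had 1.45, 1.231 and 1.00 CPM, from 58, 56 and 39 counts. Every AC1 library thus exceeded every 293F library, with no overlap. Against 293F, the log2 fold change at 0 h was 8.85 (SE 0.093) in AC1.112, 9.01 (SE 0.094) in AC1.203, 9.27 (SE 0.094) in AC1.230 and 9.12 (SE 0.094) in AC1P, or 462-, 514-, 618- and 557-fold. The adjusted p-values were 2.13e-64, 8.68e-65, 1.89e-65 and 4.38e-65 (edgeR's quasi-likelihood test with Benjamini-Hochberg adjustment over all tested genes, used for all adjusted p-values below). These differences ranked 11, 13, 9 and 8 from the highest of 21242 genes.

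Among the 1690 genes with at least 100 CPM in each AC1 line at 0 h, PEG10 kept the second smallest share of its AC1 level in 293F, 0.185%. The smallest share, 0.0416%, was that of NEFM, a neurofilament subunit, with a mean of 4091 CPM over the AC1 lines and 1.70 CPM in 293F. The next genes, TNC and GAS1, differed by 42.2-fold and 19.0-fold, against 540-fold for PEG10. The set was chosen by its AC1 level in the same libraries, so this order is a description and not a test. Over all times and per kb, PEG10 ranked 444 of 20996 genes in the AC1 lines (98.0 CPM per kb) and 16284 in 293F (0.336 CPM per kb).

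The AC1 lines also differed among themselves at 0 h, on a much smaller scale. PEG10 was lower in AC1.112 than in AC1P (log2 fold change -0.27, SE 0.057, adjusted p = 1.46e-04), AC1.230 (-0.42, SE 0.057, adjusted p = 5.42e-09) and AC1.203 (-0.15, SE 0.057, adjusted p = 0.0213). It was lower in AC1.203 than in AC1.230 (-0.27, SE 0.057, adjusted p = 6.45e-05), and AC1.230 exceeded AC1P by 0.15 (SE 0.057, adjusted p = 0.0328). AC1.203 and AC1P differed by -0.12 (SE 0.057), which missed the threshold (adjusted p = 0.0917) but was called without the filter on low counts, in the 0 h libraries fitted alone and with DESeq2 (adjusted p = 0.0155 to 0.0362). The differences of AC1.112 from AC1.203 and of AC1.230 from AC1P rested on single libraries. The first was lost without replicate 1 of AC1.112 or replicate 2 or 3 of AC1.203 (adjusted p = 0.0546 to 0.137). The second was lost without replicate 2 or 3 of AC1.230 or any of the 3 AC1P libraries (adjusted p = 0.0512 to 0.124), when the 0 h libraries were fitted alone (adjusted p = 0.114) and with DESeq2's size factors in place of TMM (adjusted p = 0.0597).

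**Figure D1:**
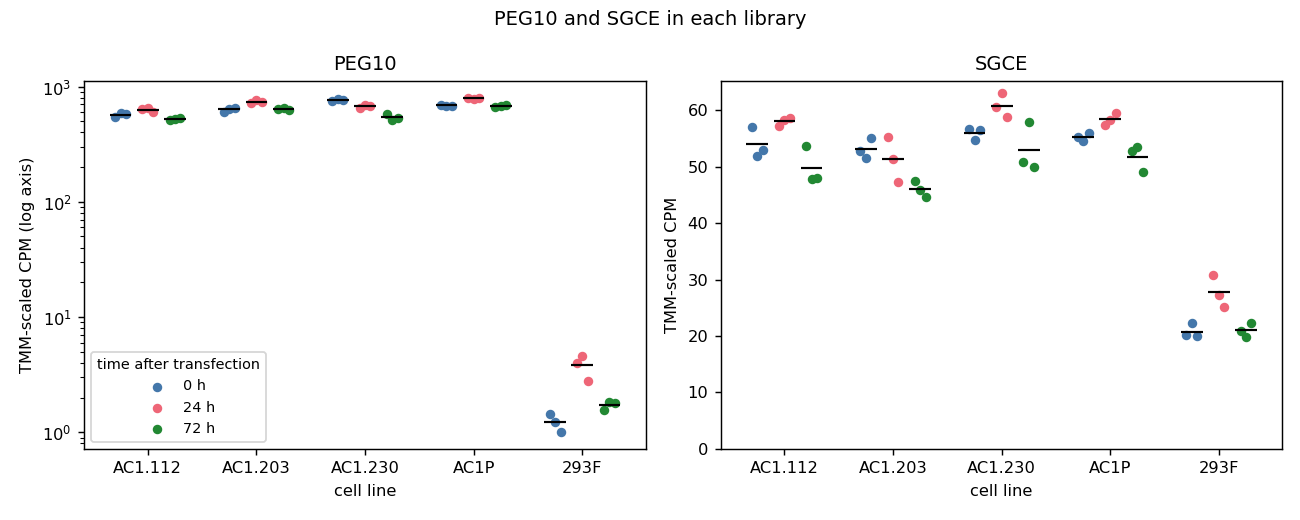
TMM-scaled CPM of PEG10 (left, log axis) and SGCE (right, linear axis) in each of the 45 libraries, by line and by time after transfection (colours). Points are libraries and bars are means of 3. PEG10 sits between 508 and 800 CPM in the AC1 lines and between 1.00 and 4.62 CPM in 293F, and SGCE between 44.7 and 63.0 CPM in the AC1 lines and 19.9 and 30.9 CPM in 293F.

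After transfection PEG10 rose at 24 h and fell back by 72 h in 293F, while the AC1 lines moved less and not all in the same direction. In 293F the libraries had 4.01, 4.62 and 2.79 CPM at 24 h (179, 177 and 114 counts) and 1.56, 1.82 and 1.78 CPM at 72 h (67, 97 and 64 counts). All 3 libraries at 24 h were above all 6 at the other times. The log2 fold change in 293F was 1.62 at 24 h (SE 0.12, adjusted p = 6.50e-18) and 0.48 at 72 h (SE 0.14, adjusted p = 0.00416), and from 24 to 72 h PEG10 fell by 1.14 (SE 0.11, adjusted p = 4.04e-13). The 72 h difference was lost without replicate 3 of 293F at 0 h (0.37, adjusted p = 0.0612) and when 293F was fitted alone (0.49, adjusted p = 0.0685). NEFM, the other transcript that is abundant in the AC1 lines and near 0 in 293F, had 1.70, 1.57 and 2.17 CPM in 293F at 0, 24 and 72 h, with a log2 fold change of -0.13 at 24 h (adjusted p = 0.587).

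In AC1.112 the PEG10 libraries had 641, 648 and 598 CPM at 24 h and 508, 524 and 534 CPM at 72 h. AC1.203 had 714, 767 and 737 CPM at 24 h and 635, 646 and 626 CPM at 72 h. AC1P had 798, 784 and 800 CPM at 24 h and 661, 672 and 696 CPM at 72 h. In these lines the 24 h libraries were the highest. AC1.230 had its highest values at 0 h, followed by 653, 690 and 674 CPM at 24 h and 578, 512 and 531 CPM at 72 h, with no overlap between times. From 0 to 24 h PEG10 rose in AC1.203 (0.22, SE 0.057, adjusted p = 0.00107) and AC1P (0.21, SE 0.057, adjusted p = 0.00563), had a log2 fold change of 0.14 in AC1.112 (adjusted p = 0.0620) and fell in AC1.230 (-0.18, SE 0.057, adjusted p = 0.0117). The AC1.230 fall at 24 h was lost without its replicate 2 at 0 h or replicate 1 at 24 h (adjusted p = 0.0589 and 0.0551) and with library totals in place of TMM (-0.11, adjusted p = 0.194). By 72 h AC1.230 was lower than at 0 h (-0.50, SE 0.057, adjusted p = 1.70e-10), and the other 3 AC1 lines were not called (-0.13 to 0.00). The AC1.112 differences at 24 h and 72 h were called under some alternatives, with DESeq2 among them (0.13 and -0.13, adjusted p = 0.0265 and 0.0139).

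From 24 to 72 h PEG10 fell in 5 of 5 lines, by 0.22 to 1.14 on the log2 scale, and the mean over lines was -0.43 (SE 0.032, adjusted p = 1.50e-18). With library totals the calls in AC1.112 (-0.15, adjusted p = 0.0521), AC1.203 (-0.11, adjusted p = 0.112) and AC1P (-0.15, adjusted p = 0.0760) were lost. Without 293F this mean was -0.27 and still called. The mean rise at 24 h, 0.40 (SE 0.034, adjusted p = 2.13e-16), was 0.09 without 293F (adjusted p = 0.00145). The mean at 72 h against 0 h was -0.03 (SE 0.037, adjusted p = 0.465) and was -0.17 without 293F (adjusted p = 4.96e-08). With library totals in place of TMM, which moved the median of all genes from 0.03 to 0.18 in this comparison, it was 0.12 (adjusted p = 0.00556). The response differed between lines at 24 h and at 72 h (line by time interaction, adjusted p = 1.32e-15 and 1.75e-07).

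SGCE encodes epsilon-sarcoglycan, a membrane protein of the dystrophin-associated complex whose maternal copy is normally silenced. It lies head to head with PEG10 (ENSG00000127990, chr7:94524204-94656572, minus strand), and the annotated starts are 247 bases apart. The exons overlap on opposite strands over 219 bases, 3.27% of the PEG10 exons and 1.05% of the SGCE exons. The library kit keeps strand, but whether the counting used it is not given in the sources used here, so reads from the overlap may be split or shared between both genes. These percentages are of bases, not of reads. At 0 h the AC1 lines had 99.2 CPM per kb of PEG10 and 2.61 of SGCE. The SGCE difference between lines and its correlation with PEG10, given below, may thus include PEG10 reads, and how many was not tested.

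SGCE was also lower in 293F, by a far smaller factor than PEG10. At 0 h the 293F libraries had 20.1, 22.2 and 19.99 CPM. The 12 AC1 libraries had 51.6 to 57.0 CPM with a median of 54.9, all above 293F. The log2 fold changes against 293F were 1.38 in AC1.112, 1.35 in AC1.203, 1.43 in AC1.230 and 1.41 in AC1P (SE 0.065 to 0.066, adjusted p = 1.40e-27 to 3.95e-29), or 2.56- to 2.69-fold. Among the AC1 lines none of the 6 pairs was called for SGCE (log2 fold changes -0.07 to 0.02, SE 0.062 to 0.063), whereas 5 of 6 were called for PEG10.

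In 293F SGCE rose at 24 h and fell back by 72 h, as PEG10 did. It had 30.9, 27.3 and 25.2 CPM at 24 h and 20.9, 19.9 and 22.4 CPM at 72 h. The 24 h libraries were above all others of that line. It rose by 0.42 at 24 h (SE 0.066, adjusted p = 2.91e-07) and fell by 0.40 from 24 to 72 h (SE 0.066, adjusted p = 6.49e-07). In the AC1 lines no change at 24 h was called (-0.05 to 0.12), and at 72 h SGCE fell in AC1.203 (-0.21, SE 0.062, adjusted p = 0.00728), which was lost with library totals in place of TMM (-0.07, adjusted p = 0.439). With library totals the 24 h difference in AC1.230 was called (0.20, adjusted p = 0.00938). The mean over lines was 0.13 at 24 h (SE 0.028, adjusted p = 4.51e-05) but 0.06 without 293F (adjusted p = 0.0972), and the response at 24 h differed between lines (adjusted p = 4.26e-04) and was not called without 293F (adjusted p = 0.362). The mean at 72 h was -0.10 (SE 0.028, adjusted p = 0.00231), and 0.06 with library totals (adjusted p = 0.0716). From 24 to 72 h SGCE fell by 0.23 in the mean over lines (SE 0.028, adjusted p = 1.38e-10), and the calls in AC1.203 and AC1.230 (-0.15 and -0.20) were lost with library totals (adjusted p = 0.525 and 0.202). Over the 15 group means, log2 CPM of PEG10 and SGCE had a Pearson correlation of 0.98, which rests on the gap between 293F and the AC1 lines.

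The difference between the lines was uneven along the locus. Within 500 kb of the PEG10 start 4 other genes passed the filter, SGCE among them. CASD1, a sialic acid O-acetyltransferase that starts at -147106 bases from the PEG10 start, had 17.2 to 18.9 CPM in the AC1 lines and 15.97 CPM in 293F at 0 h, and it was called in AC1.230 (0.24, adjusted p = 0.0235) and not in the other 3 (0.10 to 0.16). RPS3AP25, a ribosomal protein pseudogene that starts at 39494 bases, was higher in all 4 AC1 lines (0.58 to 0.78), but its reads may be shared with its many copies. PPP1R9A, which encodes neurabin and is imprinted in some tissues, starts at 250877 bases and was lower in all 4. It had 6.67, 9.35, 1.59 and 4.04 CPM in AC1.112, AC1.203, AC1.230 and AC1P against 12.3 CPM in 293F, and in AC1.230 the log2 fold change was -2.96 (SE 0.16, adjusted p = 1.26e-24).

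**Figure D2:**
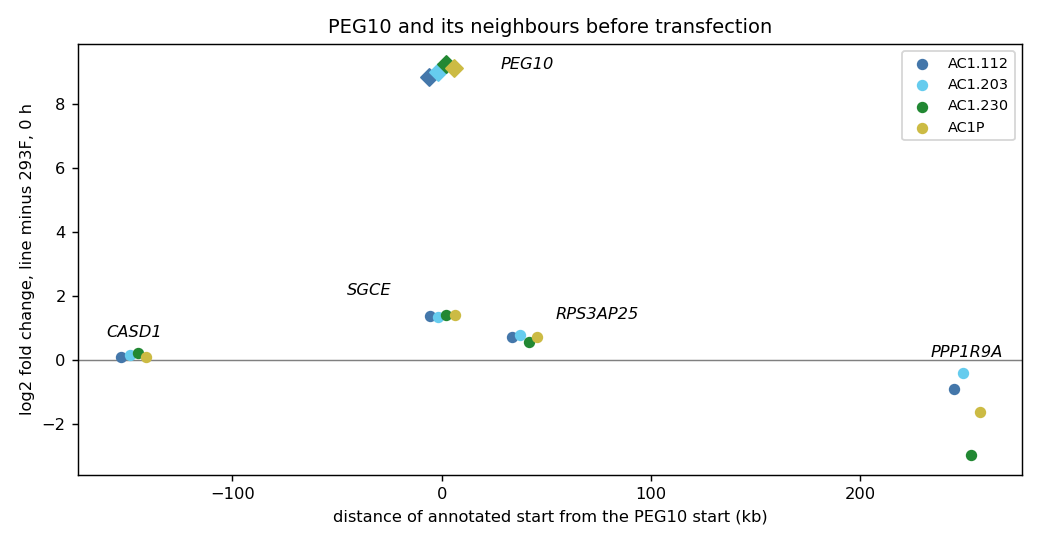
Log2 fold change of each AC1 line against 293F at 0 h (vertical axis) for PEG10 (diamonds) and the 4 tested genes within 500 kb (circles), by the distance of the annotated start from the PEG10 start in kb. Colours are lines, and points are offset sideways by a few kb so that lines can be told apart. PEG10 lies at 8.85 to 9.27, SGCE at 1.35 to 1.43, CASD1 at 0.10 to 0.24 and PPP1R9A at -0.40 to -2.96.

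By the likeness of its 15 group means on the log2 scale, PEG10 was closest to ZNF595 (r = 0.997), ZC3HAV1L (r = 0.995) and NEFM (r = 0.994). The candidates were 10141 protein-coding genes for which the log2 of the mean CPM was at least 3. ZNF595 is a zinc finger gene with 44.2 CPM in the AC1 lines and 4.84 CPM in 293F. ZC3HAV1L, a relative of an antiviral zinc finger protein, had 0 counts in all 9 libraries of 293F and was at least 571-fold higher in AC1.230 at 0 h (limit of 3 counts over the group's 3 libraries). For SGCE the closest were KLHL23 (r = 0.990), ZFPM2 (r = 0.986) and SUSD5 (r = 0.981). These correlations describe the same gap between 293F and the AC1 lines, and no test was made.

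PEG10 belongs to a larger set of genes that descend from retrotransposon gag genes. Of 22 others listed, 17 were tested, and at 0 h 5 were higher and 9 lower in AC1.112 than in 293F, 2 and 12 in AC1.203, 7 and 7 in AC1.230, and 6 and 7 in AC1P. Of all tested genes 57.8% to 62.6% were called in these comparisons. The list's median log2 fold changes ran from -0.51 to -0.02, with all-gene medians of -0.04 to -0.02. With library totals they ran from -0.69 to -0.21, and 1 to 7 of the 17 were higher and 9 to 12 lower. At 24 h 6 rose and 8 fell in the mean over lines, with a median of -0.17 (all genes -0.01), while 25.8% of all genes rose and 27.6% fell. LDOC1 fell by 0.78 (SE 0.045, adjusted p = 6.39e-23) and RTL8C by 0.66 (SE 0.029, adjusted p = 2.95e-29), and ZCCHC12 rose by 1.16 (SE 0.12, adjusted p = 4.81e-12). RTL8C has near-identical copies beside it, so its counts are uncertain.

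The other members that were expressed throughout lie on chromosome 11 in 2 neighbouring imprinted domains. IGF2 (ENSG00000167244, chr11:2129112-2149603, minus strand) encodes insulin-like growth factor 2, a fetal growth factor normally made from the paternal copy. H19 (ENSG00000130600, chr11:1995176-2001470, minus strand) is a long non-coding RNA of the maternal copy that shares an enhancer set and a control region with IGF2. CDKN1C (ENSG00000129757, chr11:2883213-2885773, minus strand) encodes p57, a cyclin-dependent kinase inhibitor of the maternal copy, in the adjoining KCNQ1OT1 domain. Of the IGF2 exon bases, 20.9% are shared with the read-through gene INS-IGF2 on the same strand, which had 0 counts in all libraries, and 333 bases lie opposite IGF2-AS, which had 186 counts in all.

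Among the 6 tested members IGF2 showed the largest difference between clones. At 0 h AC1.230 had 12.7, 13.03 and 10.6 CPM and 293F had 9.99, 9.28 and 10.4. AC1.112 had 4.36, 3.52 and 3.27 CPM and AC1P had 3.46, 3.89 and 3.90. AC1.203 had 0.789, 0.997 and 0.835 CPM, from 80 counts in all. The libraries of AC1.203 lay below, and those of AC1.230 and 293F above, all others. AC1.203 was 13.9-fold lower than AC1.230 (log2 fold change -3.80, SE 0.17, adjusted p = 9.02e-30) and 11.3-fold lower than 293F (-3.50, SE 0.17, adjusted p = 6.20e-28). AC1.230 exceeded AC1P by 1.69 (SE 0.13, adjusted p = 3.35e-17), and AC1.203 was below AC1P by -2.11 (SE 0.18, adjusted p = 7.24e-16).

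AC1.112 and AC1P did not differ detectably in IGF2 (0.00, SE 0.14), and both were below 293F (-1.39 and -1.40, SE 0.13, adjusted p = 1.57e-14 and 1.04e-14). AC1.230 was 0.30 above 293F (SE 0.12, adjusted p = 0.0291). That call was lost without replicate 1 or 2 of either line at 0 h (adjusted p = 0.0516 to 0.122), with DESeq2's size factors (adjusted p = 0.0532), without the filter on low counts (adjusted p = 0.0756) and with library totals (0.12, adjusted p = 0.402).

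After transfection IGF2 moved in different directions in different lines. At 24 h AC1.230 had 8.84, 8.60 and 8.56 CPM and 293F had 6.81, 6.13 and 8.16, all below their 0 h libraries. IGF2 fell by 0.48 in AC1.230 (SE 0.12, adjusted p = 0.00151) and by 0.49 in 293F (SE 0.12, adjusted p = 8.41e-04). In AC1.203, the line with the lowest level, it had 1.16, 1.34 and 1.09 CPM at 24 h and 1.51, 1.70 and 1.54 CPM at 72 h. All its later libraries were above those of 0 h. It rose there by 0.86 at 72 h (SE 0.20, adjusted p = 4.31e-04), and the 24 h difference was 0.46 (SE 0.21, adjusted p = 0.0683; 0.50 with library totals, adjusted p = 0.0482).

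At 72 h IGF2 was lower than at 0 h in AC1P (-0.46, SE 0.15, adjusted p = 0.0157) and AC1.230 (-0.30, SE 0.12, adjusted p = 0.0403). The AC1P call was lost without its replicate 2 at 0 h or replicate 3 at 72 h (adjusted p = 0.0572 and 0.0957), and the AC1.230 call without its replicate 1 or 2 at 0 h or replicate 3 at 72 h (adjusted p = 0.133 to 0.222) or when that line was fitted alone (adjusted p = 0.0502). It was also lost with DESeq2's size factors (adjusted p = 0.0566), without the filter on low counts (adjusted p = 0.0962) and with library totals (-0.13, adjusted p = 0.415), and library totals ended the AC1P call too (-0.36, adjusted p = 0.0703). In 293F IGF2 rose by 0.75 from 24 to 72 h (SE 0.12, adjusted p = 7.02e-07), to 10.5, 12.3 and 12.8 CPM. The mean over lines at 24 h was -0.18 (SE 0.068, adjusted p = 0.0233), and it was lost under 8 alternatives. These were leaving out AC1.230 (-0.10, adjusted p = 0.323), 293F (-0.10, adjusted p = 0.317), AC1.112 (adjusted p = 0.0653) or AC1P (adjusted p = 0.0509), leaving out replicate 1 of AC1.112 (adjusted p = 0.0620) or replicate 2 of AC1.203 at 0 h (adjusted p = 0.0581), no filter on low counts (adjusted p = 0.0666) and library totals (-0.12, adjusted p = 0.140). The response of IGF2 differed between lines at 24 h (adjusted p = 0.00590; 0.299 without AC1.203) and at 72 h (adjusted p = 8.36e-05).

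H19 was present at 0.869 to 4.72 CPM with another order of the lines than IGF2. At 0 h its means were 1.48 ± 0.670 CPM in AC1.112, 2.13 ± 0.123 in AC1.203, 2.59 ± 0.366 in AC1.230, 2.05 ± 0.359 in AC1P and 3.39 ± 0.360 in 293F (SD, n = 3). H19 was lower than in 293F in AC1.112 (-1.18, SE 0.22, adjusted p = 3.42e-06), AC1.203 (-0.67, SE 0.21, adjusted p = 0.00592) and AC1P (-0.73, SE 0.21, adjusted p = 0.00183), and -0.38 in AC1.230 (SE 0.21, adjusted p = 0.104; -0.56 with library totals, adjusted p = 0.0156). AC1.203, lowest for IGF2, was not called against AC1.230 for H19 (-0.29, SE 0.22, adjusted p = 0.284). AC1.112 was below AC1.230 (-0.80, SE 0.22, adjusted p = 0.00216), and this was -1.24 without its replicate 2 at 0 h.

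With time H19 dipped at 24 h and was higher again at 72 h in AC1.203 and 293F. In AC1.112, AC1.230 and AC1P no change at 24 h was called. The AC1.203 libraries had 2.24, 1.99 and 2.16 CPM at 0 h, 1.07, 0.919 and 0.869 CPM at 24 h and 3.76, 3.49 and 3.25 CPM at 72 h, with no overlap between times. H19 fell by 1.17 at 24 h in AC1.203 (SE 0.24, adjusted p = 4.84e-05) and then rose by 1.88 to 72 h (SE 0.23, adjusted p = 2.13e-10). In 293F the libraries had 3.31, 3.08 and 3.78 CPM, then 2.51, 1.96 and 2.47, then 4.31, 4.72 and 4.51, again without overlap. From 24 to 72 h H19 rose by 0.96 in 293F (SE 0.20, adjusted p = 7.23e-05), and its fall at 24 h, -0.55 (SE 0.21, adjusted p = 0.0266), was lost without replicate 3 at 0 h or replicate 2 at 24 h (adjusted p = 0.109 and 0.129) and with library totals (adjusted p = 0.0764). With library totals 293F was called higher at 72 h than at 0 h (0.61, adjusted p = 0.00886).

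The H19 estimate at 24 h was negative in 5 of 5 lines and called in 2 of them, with a mean of -0.52 (SE 0.10, adjusted p = 1.18e-05). The mean at 72 h was 0.20 (adjusted p = 0.0703), but a rise was called under 8 alternatives, from 0.22 without replicate 1 of AC1P at 0 h (adjusted p = 0.0471) to 0.35 with library totals (adjusted p = 0.00118). The others were leaving out replicate 2 of AC1.112 at 0 h (0.29), replicate 3 of AC1.112 at 72 h (0.23), replicate 2 of AC1P at 72 h (0.24), AC1.112 (0.23), AC1.230 (0.28) or AC1P (0.26). From 24 to 72 h the mean was 0.72 (SE 0.10, adjusted p = 5.90e-09). In AC1.230 the H19 changes were -0.03, -0.13 and -0.10 for the 3 time comparisons, none called. In AC1P they were -0.22, -0.08 and 0.15, none called. AC1.112 had -0.63 at 24 h (SE 0.25, adjusted p = 0.0600), called under 3 alternatives. From 24 to 72 h it rose by 0.70 (SE 0.25, adjusted p = 0.0268), which was lost under 5 alternatives. The test for a different response between lines at 24 h gave an adjusted p of 0.0246. It was lost without AC1.203 (adjusted p = 0.361), without AC1.230 (adjusted p = 0.108), and without replicate 3 at 0 h or replicate 2 at 24 h of AC1.230 or replicate 2 or 3 of AC1.203 at 24 h (adjusted p = 0.0521 to 0.0670).

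CDKN1C was lower at 24 h and at 72 h than at 0 h in the estimates of 5 of 5 lines, of which 4 were called at 24 h and 3 at 72 h. In AC1.203 the libraries had 5.16, 3.69 and 3.92 CPM at 0 h, 1.54, 1.58 and 1.24 CPM at 24 h and 3.29, 3.70 and 3.61 CPM at 72 h. In 293F they had 8.81, 8.75 and 9.80 CPM, then 4.86, 4.57 and 4.52, then 7.55, 7.36 and 8.05. In both lines the 24 h libraries were below all others. AC1.230 fell at both steps, from 9.07, 9.45 and 9.98 CPM to 6.51, 7.06 and 7.87 CPM and then to 5.55, 6.38 and 5.46 CPM.

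At 24 h CDKN1C fell by 1.56 in AC1.203 (SE 0.15, adjusted p = 4.47e-13), by 0.97 in 293F (SE 0.13, adjusted p = 1.65e-09), by 0.73 in AC1.112 (SE 0.13, adjusted p = 2.51e-05) and by 0.41 in AC1.230 (SE 0.12, adjusted p = 0.00774). The AC1.230 call was lost without its replicate 1 at 24 h (adjusted p = 0.0651). AC1P had -0.24 (SE 0.13, adjusted p = 0.191). At 72 h CDKN1C was lower in AC1.230 (-0.71, SE 0.12, adjusted p = 2.92e-06), AC1.112 (-0.53, SE 0.13, adjusted p = 9.96e-04) and AC1P (-0.41, SE 0.13, adjusted p = 0.0168). The AC1P call was lost without replicate 1 or 2 at 0 h or replicate 2 or 3 at 72 h (adjusted p = 0.0600 to 0.0832) and with library totals (adjusted p = 0.0687). The mean over lines was -0.78 at 24 h (SE 0.060, adjusted p = 5.19e-18) and -0.43 at 72 h (SE 0.058, adjusted p = 1.48e-09). From 24 to 72 h CDKN1C rose in AC1.203 (1.29, SE 0.15, adjusted p = 1.12e-10) and 293F (0.72, SE 0.13, adjusted p = 2.93e-06). The mean rise of 0.35 (SE 0.060, adjusted p = 1.20e-06) was 0.10 without AC1.203 (adjusted p = 0.174). The size of the fall at 24 h differed between lines (adjusted p = 7.44e-07), while at 72 h no difference was called (adjusted p = 0.172).

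Before transfection CDKN1C had 9.50 ± 0.458 CPM in AC1.230, 9.12 ± 0.591 in 293F, 6.16 ± 0.673 in AC1.112, 5.64 ± 0.522 in AC1P and 4.26 ± 0.792 in AC1.203 (SD, n = 3). AC1.203 was below AC1.230 (-1.16, SE 0.13, adjusted p = 1.38e-11) and below 293F (-1.10, SE 0.13, adjusted p = 4.37e-11), and AC1.230 and 293F differed by 0.06 (SE 0.12, adjusted p = 0.697). This is the order of IGF2, with AC1.230 and 293F high, AC1.112 and AC1P between and AC1.203 low. Over the 15 group means the Pearson correlation on the log2 scale was 0.808 between IGF2 and CDKN1C, 0.633 between H19 and CDKN1C and 0.523 between IGF2 and H19, given as a description over groups that share lines. The genes nearest to CDKN1C in pattern were EFHD1 (r = 0.966), LDOC1 (r = 0.949) and SMIM10L2A (r = 0.937). Those for IGF2 were GPC6 (r = 0.951), PARP11 (r = 0.948) and PRR3 (r = 0.946), and those for H19 were LAMA4 (r = 0.938), PLCG1 (r = 0.932) and LMTK3 (r = 0.927).

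**Figure D3:**
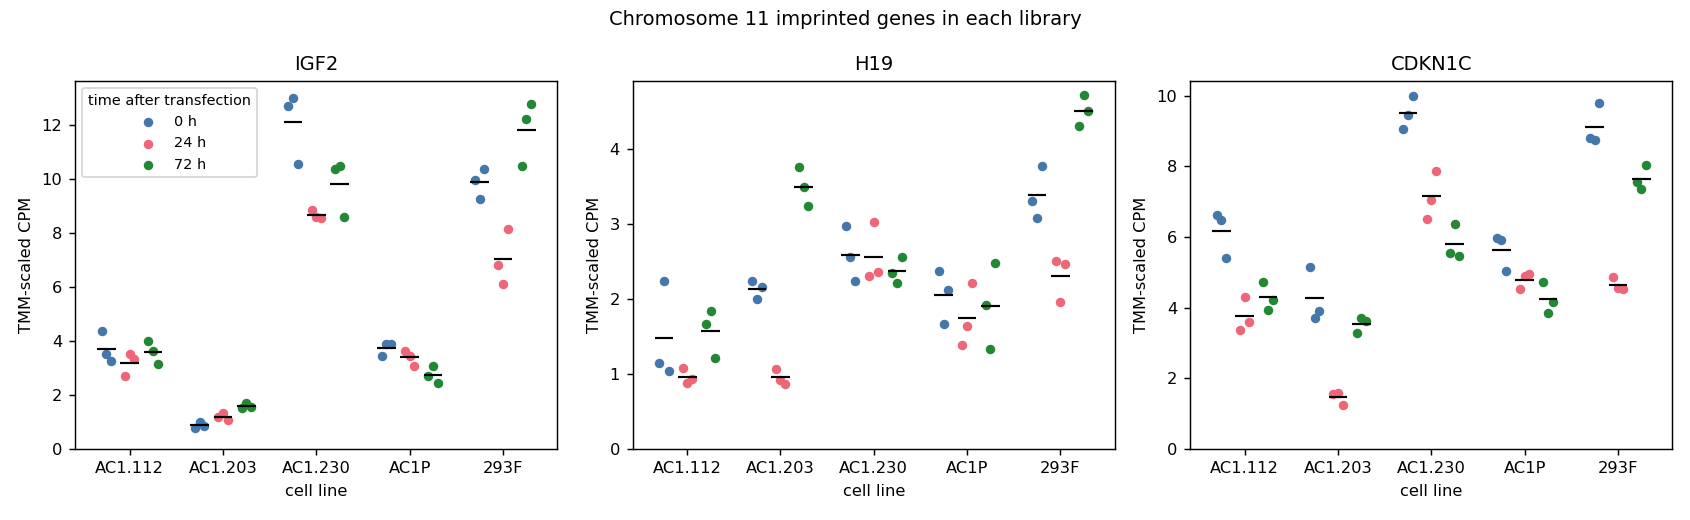
TMM-scaled CPM (linear axes from 0) of IGF2, H19 and CDKN1C in each of the 45 libraries, by line and by time after transfection (colours), with bars at the means of 3. IGF2 is lowest in AC1.203 (0.789 to 1.70 CPM), and in AC1.203 and 293F both H19 and CDKN1C have their lowest libraries at 24 h.

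**Figure D4:**
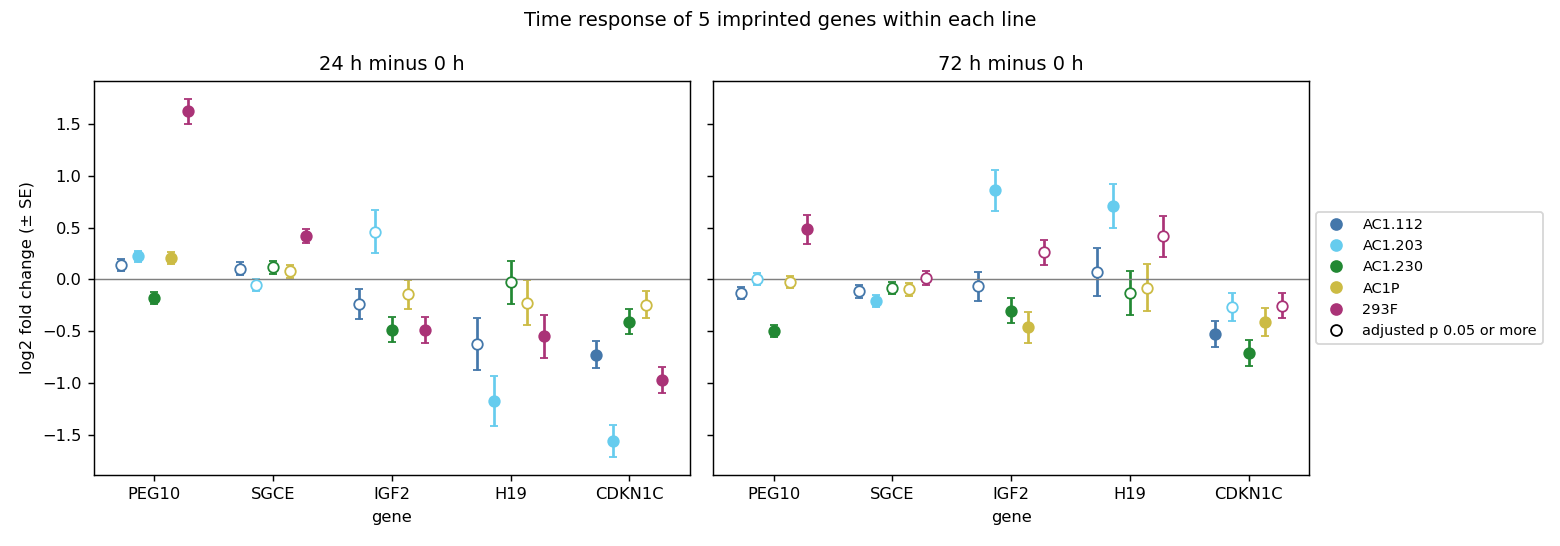
Log2 fold change (vertical axis, with SE) of 5 imprinted genes at 24 h (left) and 72 h (right) against 0 h within each line (colours). Filled points have an adjusted p under 0.05. PEG10 in 293F stands at 1.62 at 24 h, and CDKN1C lies below 0 in all 5 lines at both times.

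The neighbours of these genes did not move as a block between lines. Of 16 tested genes within 500 kb of the IGF2 start, 5 were higher and 4 lower than in 293F at 0 h in AC1.112. The counts were 4 and 5 in AC1.203, 5 and 2 in AC1.230, and 4 and 4 in AC1P. Of all tested genes 57.8% to 62.6% were called in these comparisons. Among the 16, MRPL23 (0.38 to 0.85) and CD81 (0.40 to 0.95) were higher in all 4 AC1 lines. IGF2-AS, the nearest to IGF2, had 25 counts in 293F at 0 h and 24 in AC1.230. It had 0 in AC1.112, 3 in AC1.203 and 4 in AC1P. MRPL23-AS1, an antisense RNA that starts at -11550 bases from the H19 start, had 0.923 CPM in 293F and 0.0207 to 0.0415 CPM in the AC1 lines at 0 h. Beside CDKN1C, the transporter gene SLC22A18 was lower than in 293F in AC1.112 (-1.21), AC1P (-0.92) and AC1.230 (-0.44), and PHLDA2, a placental growth regulator, in AC1.112 (-0.67) and AC1P (-1.05). OSBPL5, which starts at 280966 bases from the CDKN1C start, was higher in all 4 AC1 lines (0.40 to 1.01). KCNQ1OT1, the antisense RNA that silences this domain on the paternal copy, had 0.953 to 1.78 CPM in the 5 lines and was not called in any AC1 line against 293F.

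IGF2 signals through the IGF1 and insulin receptors, is cleared by IGF2R and is held by the IGF binding proteins. Of 21 genes of this pathway 19 were tested. Against 293F at 0 h 7 were higher and 9 lower in AC1.112, 9 and 8 in AC1.203, 8 and 8 in AC1.230 and 7 and 10 in AC1P, with medians of -0.33 to 0.03 and with 62.6%, 57.8%, 62.1% and 62.4% of all genes called. IRS4, an insulin receptor substrate typical of HEK293 cells, had 629 CPM in 293F and 318 CPM in AC1.203 at 0 h, but 4.25 CPM in AC1P, 0.711 in AC1.112 and 0.257 in AC1.230, a log2 fold change of -11.21 in AC1.230 (SE 0.20, adjusted p = 2.91e-30). PAPPA, a protease that frees IGF from its binding proteins, was 7.19 higher in AC1P than in 293F (SE 0.28, adjusted p = 6.81e-32). At 24 h 6 rose and 5 fell in the mean over lines, with a median of 0.02 (all genes -0.01; 25.8% rose and 27.6% fell). STC2, which inhibits PAPPA, rose by 1.01 (SE 0.036, adjusted p = 1.51e-33), and IGFBP5 fell by 0.79 (SE 0.064, adjusted p = 7.23e-17).

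The fall of CDKN1C was set beside the 6 other cyclin-dependent kinase inhibitors listed, all tested. At 24 h 2 rose and 2 fell in the mean over lines, with a median of 0.06, as did 25.8% and 27.6% of all genes. CDKN1A, which encodes p21, fell by 0.47 (SE 0.021, adjusted p = 4.95e-29) and regained 0.53 from 24 to 72 h (SE 0.021, adjusted p = 3.20e-31). CDKN2B, which encodes p15, rose by 0.74 at 24 h (SE 0.055, adjusted p = 1.26e-18) and CDKN1B, which encodes p27, by 0.29 (SE 0.023, adjusted p = 2.33e-17). At 72 h 4 were higher and 2 lower than at 0 h, with a median of 0.17 (all genes 0.03; 30.3% higher and 29.5% lower).

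MEST (ENSG00000106484, chr7:130486171-130506465, plus strand) encodes an alpha/beta hydrolase-fold protein made from the paternal copy. It had 159 counts in all, at most 14 in a library, and 37 libraries had any. Pooled over 9 libraries a line, the level was 0.218 CPM in AC1.203 (75 counts, 95% exact Poisson interval 0.172 to 0.274), 0.104 in AC1P (36 counts, 0.0728 to 0.144), 0.0612 in AC1.230 (23 counts, 0.0388 to 0.0918), 0.0507 in AC1.112 (17 counts, 0.0295 to 0.0811) and 0.0210 in 293F (8 counts, 0.00908 to 0.0414). These intervals cover counting error only, as do the limits below. The interval of AC1.203 lay above the other 4. MEST passed the filter on low counts only through libraries of AC1.203, so the calls that follow are not independent of that filter and are given as a description. At 0 h MEST was higher in AC1.203 than in 293F (2.88, SE 1.03, adjusted p = 0.0133) and lower in AC1.112 than in AC1.203 (-2.68, SE 1.04, adjusted p = 0.0268). The first was lost without replicate 3 of either line at 0 h (adjusted p = 0.0522 and 0.0645), and the second without replicate 1 or 3 of AC1.112 or replicate 3 of AC1.203 (adjusted p = 0.0534 to 0.0989) or without the filter on low counts (adjusted p = 0.0699). No time comparison of MEST was called, at SEs of 0.50 to 1.63. The genes nearest to it in pattern were GALK2 (r = 0.944), CCND2 (r = 0.927) and ANXA1 (r = 0.925), the highest of 10142 candidates. The MEST group means behind these values were 0.00746 to 0.253 CPM, all under the 0.5 CPM added before the log. They rest on few counts, so this likeness is uncertain.

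PEG3, DLK1 and MEG3 were near the limit of detection in every group. PEG3 (ENSG00000198300, chr19:56810077-56840728, minus strand), a zinc finger gene of the paternal copy, had 12 counts in 6 libraries, and 6 of them were in a single AC1.230 library at 72 h. DLK1 (ENSG00000185559, chr14:100725705-100738224, plus strand), a paternally expressed Notch-like ligand, had 25 counts in 293F (0.0657 CPM, interval 0.0425 to 0.0970), 5 each in AC1.230 and AC1P, and 0 in AC1.112 and AC1.203, which allows up to 0.00894 and 0.00874 CPM by a limit of 3 counts. MEG3 (ENSG00000214548, chr14:100779410-100861031, plus strand), the maternal non-coding RNA of the DLK1 domain, had 8 counts in 4 libraries, and 0 in AC1.112 and AC1.203. PEG3 shares 1264 exon bases with ZIM2, which had 0 counts. The highest value of any library for these 3 genes was 0.183 CPM, for DLK1 in 293F at 24 h.

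Ordered from high to low over the 15 groups, 8 of 14 neighbouring groups overlapped in their library ranges for PEG10 and IGF2, 10 for SGCE, 11 for CDKN1C and 12 for H19. For MEST, PEG3, DLK1 and MEG3 all 14 overlapped. The same count was not made for all tested genes, so these numbers do not set the members apart from other genes. PEG10 ran from AC1P at 24 h (784 to 800 CPM) down to 293F at 0 h, and IGF2 from AC1.230 at 0 h down to AC1.203 at 0 h. H19 and CDKN1C both ended with AC1.203 at 24 h.

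DLK1 is related to the Notch ligands, and the 12 Notch genes listed beside it were all tested. At 24 h 5 rose and 5 fell in the mean over lines (median 0.01), as did 25.8% and 27.6% of all genes. At 72 h 8 rose and 2 fell (median 0.32, all genes 0.03), as did 30.3% and 29.5% of all genes. NOTCH3 fell by 0.73 at 24 h (SE 0.040, adjusted p = 4.09e-21). The ligand DLL1 was lower in AC1P than in 293F (-2.53, SE 0.095, adjusted p = 2.05e-33).

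PEG3 lies in a cluster of zinc finger genes. Of 25 tested genes within 500 kb, 14 were lower than in 293F and 3 higher in AC1.112, 13 and 1 in AC1.203, 15 and 3 in AC1.230, and 12 and 2 in AC1P, where 62.6%, 57.8%, 62.1% and 62.4% of all tested genes were called. Whether this window differs from other genes was not tested. ZNF542P, ZNF471 and ZNF667 had at most 4 counts in any AC1 line over all times. They passed the filter on low counts only through 293F, so they could only be counted as lower. ZNF667-AS1 had 0 to 0.138 CPM in the AC1 lines at 0 h against 2.32 CPM in 293F. ZNF542P had 25.4 CPM in 293F at 0 h and 0 counts in all 36 AC1 libraries, at least 779- to 1050-fold lower. ZNF471 had 7.34 CPM in 293F and 0 counts at 0 h in the 3 clones. In the DLK1 and MEG3 region the nearest tested gene, BEGAIN, was lower in all 4 AC1 lines (-0.50 to -1.01).

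Counted over the 6 tested members, 5 were called at 0 h against 293F in AC1.112 (2 higher, 3 lower), 6 in AC1.203 (3 and 3), 3 in AC1.230 (3 and 0) and 5 in AC1P (2 and 3). In these comparisons 62.6%, 57.8%, 62.1% and 62.4% of all tested genes were called. Many genes outside this set thus also differed. Of these calls 4, 5, 2 and 3 were at least 2-fold, against 22.8%, 18.6%, 22.7% and 22.9% of all tested genes. The calls in AC1.203 include MEST, which passed the filter on low counts only through that line. In the mean over lines 2 members were higher and 3 lower at 24 h (25.8% and 27.6% of all genes), 0 and 2 at 72 h (30.3% and 29.5%), and 3 and 2 from 24 to 72 h (29.3% and 28.7%). None of these mean changes reached 2-fold, as 3.77%, 6.6% and 4.63% of all genes did. The response differed between lines for 5 members at 24 h (43.9% of all genes) and for 2 at 72 h (23.2%).

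Between AC1 lines at 0 h, 1 member was called for AC1.112 against AC1P (26.1% of all genes called), 2 for AC1.203 against AC1P (45.1%), 3 for AC1.230 against AC1P (35.8%), 3 for AC1.203 against AC1.230 (51.1%), 4 for AC1.112 against AC1.230 (45.8%) and 4 for AC1.112 against AC1.203 (49.1%). AC1.230 was the higher line in all its calls. The calls for AC1.112 against AC1.203 include MEST, kept by the filter only through AC1.203. Within lines, the 24 h comparison called 1 member in AC1.112 (23.4%), 3 in AC1.203 (41.9%), 3 in AC1.230 (26.9%), 1 in AC1P (19.4%) and 5 in 293F (41.9%). The 72 h comparison called 1 (32.6%), 3 (30.9%), 3 (39.1%), 2 (25.9%) and 1 (40.2%) in the same order. From 24 to 72 h the counts were 3 (26.6%), 4 (48.2%), 2 (19.5%), 1 (13.6%) and 5 (42.1%).

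Other imprinted genes were read from 2 lists, by the parental copy they are reported to be expressed from. Whether each is expressed from that copy alone in these cells was not measured. Of 28 further paternally expressed genes 26 were in the files and 14 were tested. Against 293F at 0 h 3 were higher and 8 lower in AC1.112, 2 and 9 in AC1.203, 2 and 8 in AC1.230, and 2 and 9 in AC1P, and the medians were -1.55, -1.15, -0.81 and -1.21 with all-gene medians of -0.04 to -0.02. Genes with 0 counts in a line, set to the limit of 3 counts, left these medians as they were. Of all tested genes 57.8% to 62.6% were called in these comparisons, and with library totals 1 of the 14 was called higher and 8 or 9 lower in each line. Of the tested members of the paternal copy, PEG10 and SGCE were higher in all 4 AC1 lines. MEST was called higher in AC1.203 only, the line through which it passed the filter on low counts. IGF2 was lower in AC1.112 (-1.39), AC1.203 (-3.50) and AC1P (-1.40). In AC1.230 it was higher (0.30), a call lost under 7 of 12 alternatives. FAM50B had 15.4 CPM in 293F and 0 counts at 0 h in the 3 clones (at least 475- to 588-fold lower), with 1 count in AC1P. It passed the filter on low counts only through 293F, so it could only be called lower in the AC1 lines. MKRN3 was much alike, with means over all times of 0.0241 to 0.114 CPM in the AC1 lines and 0.869 CPM in 293F. Both enter the counts and medians above, and the all-gene shares were not split by direction. MAGEL2, a gene of the Prader-Willi region, had 1.93 CPM in 293F, 0.983 in AC1.230, 0.189 in AC1.112, 0.0669 in AC1P and 0.00960 in AC1.203. ZDBF2 (0.57 to 0.70) and ZNF331 (0.29 to 0.44) were higher in all 4, but with library totals at most 1 of them kept its call in each line. At 72 h 5 of the 14 rose and 0 fell in the mean over lines (median 0.41, all genes 0.03; 30.3% rose and 29.5% fell), among them HYMAI (1.27, SE 0.36, adjusted p = 0.00153), L3MBTL1 (1.02, SE 0.13, adjusted p = 4.42e-08) and ZNF331 (0.76, SE 0.052, adjusted p = 1.85e-14). This all-gene median was 0.18 with library totals in place of TMM. HYMAI had 331 counts over all 45 libraries, so its change rests on low counts, and it lies within the annotated span of PLAGL1.

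Of 21 further genes listed as maternally expressed 16 were tested, and calls ran in both directions. Against 293F 5 were higher and 5 lower in AC1.112, 5 and 4 in AC1.203, 7 and 5 in AC1.230 and 6 and 5 in AC1P, with medians of 0.00 to 0.15 and with 57.8% to 62.6% of all genes called. With library totals the medians turned negative, -0.18 to -0.03, and 4 or 5 were higher and 6 or 7 lower. ZNF597 had 1.79 CPM in 293F and 0 counts at 0 h in AC1.203, AC1.230 and AC1P, at least 55.2- to 74.5-fold lower. With at most 4 counts in any AC1 line over all times, it passed the filter on low counts only through 293F. CPA4 was 2.61 higher in AC1.203 (SE 0.54, adjusted p = 2.98e-05). At 24 h TP73, a relative of p53, rose by 0.80 (SE 0.040, adjusted p = 2.72e-26) and KCNQ1, a potassium channel gene, fell by 0.80 (SE 0.17, adjusted p = 5.12e-05), among 4 that rose and 5 that fell (median -0.11).

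**Figure D5:**
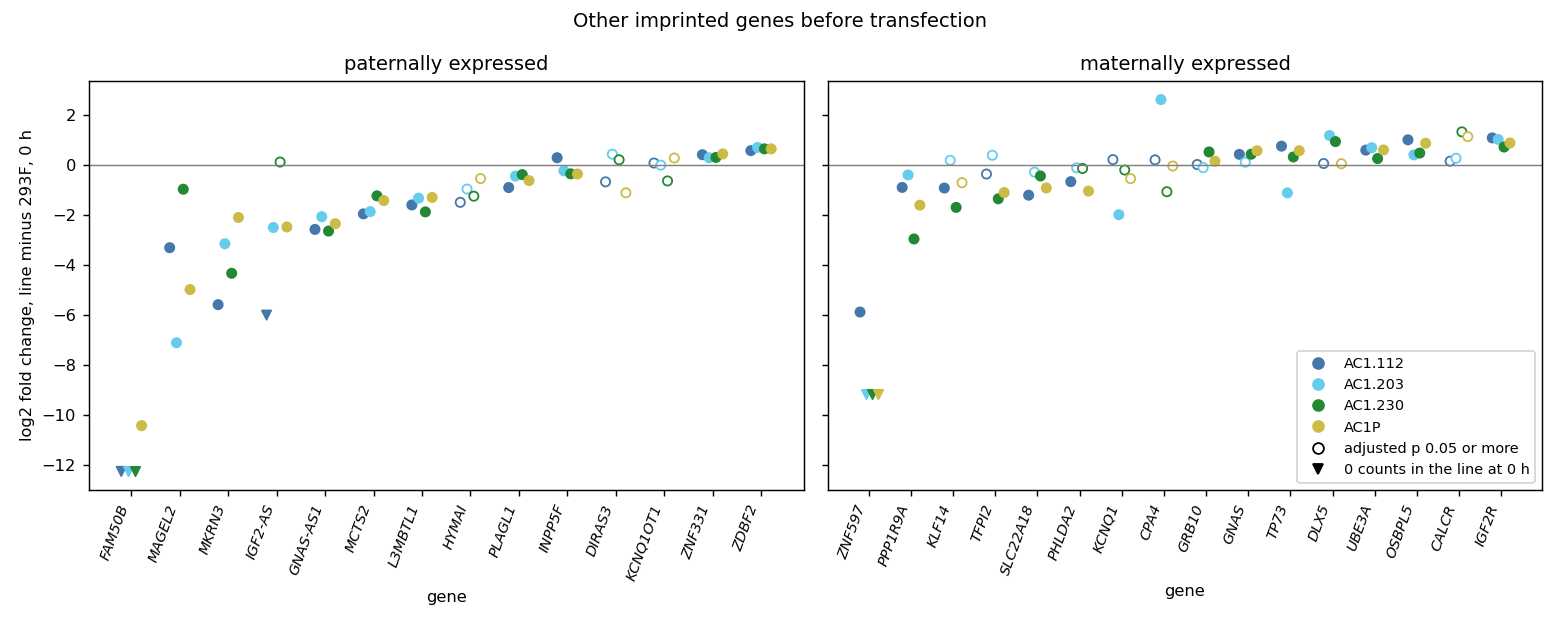
Log2 fold change of each AC1 line (colours) against 293F at 0 h (vertical axis) for other imprinted genes, ordered by their median. Shown are the tested genes listed as paternally expressed (left) or maternally expressed (right) that are not among the 9 members. Filled symbols have an adjusted p under 0.05, and triangles mark lines with 0 counts, whose position depends on the prior count. In the left panel 8 or 9 of 14 genes are called below 0 in each line, among them FAM50B, which passed the filter on low counts only through 293F.

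Of 21 genes for factors that keep or erase imprints, 17 were tested. Against 293F at 0 h 12 were higher and 3 lower in AC1.112, 10 and 2 in AC1.203, 13 and 1 in AC1.230 and 12 and 3 in AC1P, with medians of 0.42 to 0.47, while 57.8% to 62.6% of all genes were called in either direction. With library totals 9 or 10 were higher and 2 to 5 lower in each line, with medians of 0.21 to 0.29 where those of all genes were -0.25 to -0.20. UHRF1, which brings DNMT1 to replicating DNA, was 1.05 higher in AC1P (SE 0.054, adjusted p = 1.67e-26), and TET1, which oxidises methylated cytosine, was 1.204 higher in AC1.112 (SE 0.082, adjusted p = 1.79e-18). CTCFL, the germ-line relative of the insulator protein CTCF, had 6.95 CPM in 293F against 0.0982 CPM in AC1.112 at 0 h. At 24 h 11 of the 17 rose and 1 fell (median 0.12, all genes -0.01; 25.8% rose and 27.6% fell), with TET3 at 0.56 (SE 0.040, adjusted p = 3.97e-17). CTCF fell by 0.31 from 24 to 72 h (SE 0.025, adjusted p = 3.45e-17). DNA methylation was not measured in these libraries.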

How the data were processed

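The data were counts per gene for 45 poly(A) RNA libraries, 3 for each of 5 HEK293F lines at 0, 24 and 72 h. The authors deposited whole-number counts, 1 file per library; the submitters' processing notes name HISAT2, Subread, featureCounts and GRCh38, while their versions, the annotation and the strand setting are not stated there. Of 60675 identifiers 56558 were matched to a symbol; coordinates are from GENCODE 29 (GRCh38) and sequences from that genome and from RefSeq (GRCh38.p14).

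Genes were kept by edgeR's filter (minimum count 10, minimum total 15; 21242 genes), scaled by TMM and fitted with edgeR 4.0.16 (R 4.3.3, limma 3.58.1) as 1 mean for each of 15 groups of 3 libraries, so that all groups share the estimate of spread. Contrasts were tested by the quasi-likelihood test with Benjamini-Hochberg adjustment over all kept genes and called at an adjusted p under 0.05. The fit was tested on simulated data.

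The members and lists were chosen with earlier results of these data known. Named were all 9 members, for each tested member the 3 genes most like it, from each list the called genes with the largest changes (up to 3 per comparison; not all are named), and the nearest tested neighbours; ZDBF2, TNC and GAS1 were named after their values were seen. Correlations across groups used log2(CPM + 0.5).

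Alternatives were DESeq2 1.42.0, its size factors (RLE) in edgeR, no filter, each library left out, each line left out, each line or the 0 h libraries fitted alone, a replicate block and, chosen after seeing the data, library totals in place of TMM.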

Additional observations from a re-analysis of the deposited data

Results flagged for a closer look

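The time response differed between the 5 lines, by a test of the line by time interaction (edgeR's quasi-likelihood test, Benjamini-Hochberg adjusted over all tested genes), for 5 members at 24 h and 2 at 72 h. For PEG10 the adjusted p was 1.32e-15 at 24 h and 1.75e-07 at 72 h: in 293F it rose by 1.62 at 24 h, and in the AC1 lines it changed by -0.18 to 0.22. For SGCE the adjusted p was 4.26e-04 at 24 h, with 0.42 in 293F and -0.05 to 0.12 elsewhere. For CDKN1C it was 7.44e-07 at 24 h, with estimates from -1.56 in AC1.203 to -0.24 in AC1P. For IGF2 it was 0.00590 at 24 h and 8.36e-05 at 72 h, and AC1.203 moved upward (0.86 at 72 h) while AC1P moved downward (-0.46). For H19 it was 0.0246 at 24 h, with -1.17 in AC1.203 and -0.03 in AC1.230.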

How the results depend on the processing

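Of 3000 values for the 6 tested members under alternative processing, 2859 kept their direction and side of the threshold where called, 89 lost and 50 gained a call and 2 changed direction with a call on one side of the change only. Both did so with library totals in place of TMM, an alternative chosen after seeing the data, in the mean at 72 h against 0 h: PEG10 to 0.12 (adjusted p = 0.00556) and SGCE to 0.055 (adjusted p = 0.0716). That setting moved the median of all genes to 0.18, and the cause was not tested. The number of members called in the means over lines was 5 at 24 h, 2 at 72 h and 5 from 24 to 72 h. It was 3 at 24 h without line 293F, 4 at 72 h without line AC1P and 4 at 72 h with library totals. The interaction at 24 h, called for 5, was called for 3 without line AC1.203, and the cause was not tested. Leaving out 1 library gave 4 to 5 members at 24 h, 2 to 3 at 72 h, 5 from 24 to 72 h, 36 to 40 of the 38 called within lines, 18 to 20 of the 19 against 293F, 14 to 19 of the 17 between AC1 lines, and 4 to 5 and 2 for the interactions. DESeq2 called 5, 2, 5, 43, 19, 18, 5 and 2 in the same order. Replicate numbers were not taken as pairs: libraries that share a number had a mean correlation of deviations of 0.00213, with 11 of 315 pairs over 0.1, and 20 of 45 libraries correlated best with their own number. With a replicate block the counts were 5, 2, 5, 39, 19, 17, 5 and 2, and SGCE in AC1P from 24 to 72 h became called (adjusted p = 0.0470). MEST, PEG3, DLK1 and MEG3 had 159, 12, 35 and 8 counts over 45 libraries; the SE of the MEST time comparisons was 0.50 to 1.63, and the other 3 were not tested.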
